A study of Mus musculus with 5 samples.

Results

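*Trp53*, the gene of the transcription factor p53, and 9 of its direct target genes (*Cdkn1a*, *Mdm2*, *Ccng1*, *Bbc3*, *Pmaip1*, *Sesn1*, *Sesn2*, *Zmat3* and *Gdf15*) were followed in bulk RNA-seq of sorted mouse mammary luminal cells. The members were taken by gene symbol, and all 10 were found among 24319 genes. In all, 5 libraries were measured, each from the mammary luminal cells that line the ducts and alveoli. By genotype label, replicates 1, 2 and 3 are wild type while replicates 4 and 5 are *Brca1* knockout, and strain (mixed) and tissue (mammary) are shared by all. Values are given below in this order. In the study, *Brca1* was deleted by *MMTV-Cre*, a Cre transgene that is active in mammary epithelium, in *Brca1* fl/fl mice on a mix of the C57BL/6 and 129/Sv strains, and luminal cells were sorted as CD24Hi CD29Lo cells, a gate that does not select the cells in which Cre had acted. The same work also used *Trp53* fl/+ mice, and the labels do not give the *Trp53* genotype of any library. Whether a library came from a young adult virgin or a pregnant mouse, and from 1 mouse or several, is not given in the sources used here. The study's text describes its luminal cells as BRCA1-deficient, whereas 3 of the 5 labels say wild type, so each library is called by its label below. The p-values measure the spread between these samples, which may be technical.

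p53 is kept at low levels in unstressed cells because the ubiquitin ligase encoded by *Mdm2*, itself a p53 target, marks it for degradation. After DNA damage and other stress the protein is stabilised and switches on genes that stop the cell cycle, repair damage, adjust metabolism or start apoptosis. Most of this control acts on the protein, so the mRNA of *Trp53* does not report p53 activity. Cells that lose BRCA1, a protein of DNA break repair, are known to depend on a weakened p53 response to survive and form tumors.

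The values are FPKM, read fragments of a gene corrected for transcript length and for sequencing depth, so levels can be compared between genes per unit of length. Differences were computed on log2(FPKM + 1). The sorted population was checked first. The luminal keratin *Krt8* lay between 2240 and 3653 FPKM and the epithelial adhesion gene *Epcam* between 570 and 1062 FPKM (lowest and highest of 5 libraries). Of 8 luminal markers, 5 were highest in replicate 3, *Krt8* and *Epcam* among them. The 2 that were lowest there were *Elf5* (102 FPKM) and *Cd24a* (411 FPKM). The basal keratin *Krt14* lay between 3.65 FPKM in replicate 3 and 104 FPKM in replicate 2. The fat cell marker *Lep* was listed at 0 in all 5 libraries. The library labelled wild type replicate 3 stood apart from the others, being the lowest of the 5 in 51.9% of 11481 tested genes, and its 6 mature luminal markers together reached 508 FPKM against 20.3 to 45.2 FPKM elsewhere. *Brca1* was at 1.3, 1.32 and 0.234 FPKM under the wild type label and 1.20 and 1.34 FPKM under the knockout label. The gene-level *Brca1* value was thus not lower under the knockout label, and it does not show whether a part of the gene was deleted. The depth estimated from the spacing of low values was about 6280000, 13200000 and 30200000 fragments under the wild type label and 6380000 and 21700000 under the knockout label. For replicate 2 a value of 26400000 could not be told apart from 13200000.

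*Trp53* (ENSMUSG00000059552, chromosome 11, 69580359 to 69591873 of mm10, plus strand) was expressed at 59.0, 59.5 and 15.6 FPKM under the wild type label and 64.8 and 38.3 FPKM under the knockout label. Replicate 3 was the low library, and the labels overlapped because the next lowest value lay in a knockout library. The mean of the other 4 libraries was 3.55-fold that of replicate 3, and the SD on the log2 scale was 0.83 over all 5 libraries and 0.33 without replicate 3. *Trp53* varied more than 91.1% of tested genes. The upstream kinase genes *Chek1* and *Chek2*, whose products phosphorylate p53 after DNA damage, were also low in replicate 3, with a mean of the other libraries that was 4.37-fold and 4.55-fold the value there. Of 18 tested genes of p53 regulators, 11 were lowest in replicate 3, beside 51.9% of all tested genes. The kinase gene *Hipk2*, also a regulator, had its highest value there (13.5 FPKM). All 15 cell cycle genes of a list of genes repressed through p21 had their lowest value in that library as well, with a sum of 11.3 FPKM against 111 to 223 FPKM elsewhere, and all 6 mature luminal markers their highest. The part of the composition of the sorted cells in the *Trp53* value was not tested. In bulk samples, fewer cells of a type and less RNA per cell cannot be told apart.

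Direct control by p53 rests on its response element, which is built from a pair of decamers with a short spacer. RefSeq windows of 250 bases before to 50 bases after the start, on GRCm38.p6, which is mm10, were found for 8 of the 10 genes (13 windows). The p53 decamer, a motif whose pattern is its own reverse complement and was thus searched on both strands at once, was present in 5 of these 13 windows and in 8.36% of all 32851 windows. A pair of decamers with at most 13 bases between them was present in 0.0731% of all windows and, among the 8 genes with a window, in *Cdkn1a* only. The 5 stretches below are shown because they are the places upstream of a start where the members carry the motif, each written in the direction of the gene with the decamers in capitals. The *Cdkn1a* stretch is chr17:29090881-29090962 (plus strand), at the more upstream of its starts. Its exact decamers begin 73 and 51 bases before that start, with 12 bases between them. The bases directly after the downstream decamer match the pattern in all but their first position and stay in lower case. The search required exact matches, so it does not tell which decamers make up a response element. The others are *Mdm2* chr10:117710910-117710969 (minus strand, 186 bases before the start), *Ccng1* chr11:40755437-40755496 (minus strand, 185 bases), *Sesn1* chr10:41887241-41887300 (plus strand, 173 bases before an internal start) and *Trp53* chr11:69580259-69580318 (plus strand, 75 bases).
Cdkn1a: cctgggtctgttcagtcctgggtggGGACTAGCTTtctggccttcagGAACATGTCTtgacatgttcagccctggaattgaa
Mdm2: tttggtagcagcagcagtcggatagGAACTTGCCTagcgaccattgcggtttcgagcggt
Ccng1: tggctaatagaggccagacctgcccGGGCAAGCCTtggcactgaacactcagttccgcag
Sesn1: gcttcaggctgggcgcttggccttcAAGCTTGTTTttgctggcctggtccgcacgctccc
Trp53: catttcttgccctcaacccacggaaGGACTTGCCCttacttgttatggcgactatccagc
No decamer was found in the windows of *Bbc3*, *Sesn2* and *Gdf15*, at the downstream start of *Cdkn1a* or at the upstream start of *Sesn1*. This says only that the motif is not in these stretches of sequence. Capitals mark exact matches to the pattern, so a decamer with a mismatch stays in lower case. A match is a description of the letters, and binding was not measured here.

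*Cdkn1a* (ENSMUSG00000023067, chromosome 17, 29090976 to 29100727, plus strand) encodes p21, the inhibitor of cyclin-dependent kinases through which p53 arrests the cell cycle, and it is the gene with the paired decamers above. It was at 57.0, 43.6 and 61.2 FPKM under the wild type label and 60.4 and 60.1 FPKM under the knockout label. The other 4 libraries lay within a narrow band and replicate 2 below them, and the labels overlapped because replicate 3 lay above both knockout-labelled values. *Cdkn1a* was the member with the highest mean, 56.4 ± 7.36 FPKM (SD, n = 5), higher than 90.7% of tested genes, and it varied less than most, with only 24.7% of tested genes having a smaller SD. *Cdkn1a* and *Trp53* did not follow each other across libraries. The ratio of *Cdkn1a* to *Trp53* FPKM was 0.965, 0.733 and 3.92 in replicates 1, 2 and 3 and 0.931 and 1.57 in replicates 4 and 5. In replicate 3, where *Trp53* was lowest, *Cdkn1a* had its highest value. Exons of *Cdkn1a* share 273 bases with an antisense transcript in GENCODE, and the library kit did not keep the strand, so reads from that stretch cannot be assigned to one of them.

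*Mdm2* (ENSMUSG00000020184, chromosome 10, 117688875 to 117710758, minus strand), the ubiquitin ligase that closes the feedback loop on p53, was at 28.0, 20.5 and 20.5 FPKM under the wild type label and 19.9 and 24.5 FPKM under the knockout label. These are the tightest levels of the set together with *Cdkn1a*, the highest *Mdm2* value being 1.41-fold the lowest. In replicate 3 *Mdm2* was at the level of replicate 2 and above replicate 4, so it did not share the low value of *Trp53* there. Its ratio to *Trp53* was 1.31 in replicate 3, against 0.475 and 0.345 in replicates 1 and 2 and 0.307 and 0.638 in replicates 4 and 5. Its paralog *Mdm4*, which blocks the transactivation domain of p53, was at 13.3, 9.32 and 13.4 FPKM and at 13.4 and 12.8 FPKM in the same order of replicates, with replicate 2 lowest as for *Cdkn1a*.

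The pair of apoptosis genes encode BH3-only proteins, which free the mitochondrial pathway by binding BCL2 family members. *Bbc3* (PUMA; ENSMUSG00000002083, chromosome 7, 16308393 to 16318205, plus strand) was at 7.60, 9.15 and 7.90 FPKM under the wild type label and 5.65 and 9.02 FPKM under the knockout label. *Pmaip1* (NOXA; ENSMUSG00000024521) was at 2.2, 5.53 and 3.72 FPKM and at 4.85 and 3.29 FPKM, respectively. The labels overlapped for both genes. Both had their highest value in replicate 2 but their lowest in different libraries, replicate 4 for *Bbc3* and replicate 1 for *Pmaip1*. These are shallow libraries, and the values rest on about 65.4 and 37.7 fragments there by the estimate of depth, so counting error adds to the spread.

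*Ccng1* (ENSMUSG00000020326, chromosome 11, 40748552 to 40755311, minus strand) encodes cyclin G1, which recruits a phosphatase to MDM2. It was at 14.4, 16.4 and 8.34 FPKM under the wild type label and 11.3 and 16.3 FPKM under the knockout label. Replicate 3 was lowest here as for *Trp53*, and the mean of the other libraries was 1.75-fold that value. *Zmat3* (ENSMUSG00000027663, chromosome 3, 32334792 to 32366014, minus strand), an RNA-binding protein that acts in the tumor suppression by p53, was the lowest member on average, at 1.69, 1.40 and 2.01 FPKM and at 1.02 and 1.61 FPKM. The lowest *Zmat3* value lay in replicate 4 and the highest in replicate 3, so this gene was ordered differently from *Ccng1* across the libraries.

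The sestrins restrain mTORC1 signalling and oxidative stress, *Sesn1* mainly as a p53 target and *Sesn2* also as a target of ATF4, the transcription factor of the integrated stress response. *Sesn1* (ENSMUSG00000038332, chromosome 10, 41809935 to 41908424, plus strand) was at 7.98, 5.70 and 9.23 FPKM under the wild type label, and the knockout-labelled libraries held both its highest value, 12.1 FPKM in replicate 4, and its lowest, 4.29 FPKM in replicate 5. *Sesn2* (ENSMUSG00000028893, chromosome 4, 132492032 to 132510501, minus strand) was at 14.5, 14.3 and 9.87 FPKM under the wild type label and 16.3 and 20.2 FPKM under the knockout label. The *Sesn2* groups did not overlap, with both knockout-labelled values above all wild type ones. Its lowest value lay in replicate 3, as for 11 of 14 genes of an ATF4 list (*Atf4* itself and its targets), beside 51.9% of all tested genes. Among these, the serine synthesis gene *Psat1* was at 28.5, 68.5 and 8.63 FPKM under the wild type label and 39.4 and 63.6 FPKM under the knockout label. *Slc7a5*, higher under the knockout label, was the single one of the 14 whose labels did not overlap, where 17.5% of tested genes were so. The part of the ATF4 genes' levels in the *Sesn2* value was not tested.

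*Gdf15* (ENSMUSG00000038508, chromosome 8, 70629393 to 70632456, minus strand) encodes a secreted stress cytokine of the TGF-beta superfamily that both p53 and ATF4 can induce. It was at 3.05, 8.76 and 3.07 FPKM under the wild type label and 1.52 and 2.32 FPKM under the knockout label. The *Gdf15* groups did not overlap, with both knockout-labelled values below all wild type ones, and replicate 2 was far above the rest. The highest value was 5.77-fold the lowest, the widest range of the 10 genes. Replicate 2 was also highest for 8 of 14 genes of the ATF4 list, for 5 of 6 immune markers, for 4 of 6 fibroblast markers and for 5 of 6 basal markers. Of all tested genes, 16.0% were highest in replicate 2. The immune markers summed to 27.0, 934 and 255 FPKM under the wild type label and 27.8 and 472 FPKM under the knockout label. *Cd74* alone gave 22.7, 696 and 205 FPKM and 25.9 and 465 FPKM of these sums. The myeloid marker *Lyz2* was at 213 FPKM in replicate 2 and at 1.04 to 28.7 FPKM in the other libraries. The fibroblast markers summed to 3.0, 109 and 86.0 FPKM and to 3.86 and 12.6 FPKM, and the basal markers to 68.1, 130 and 7.47 FPKM and to 39.7 and 61.5 FPKM. *Krt14* alone gave 48.2, 104 and 3.65 FPKM and 27.7 and 45.5 FPKM of the basal sums. *Krt5*, *Acta2*, *Myh11* and *Mylk* were lower in replicate 5 than in replicate 1 (*Acta2* 2.53 against 8.95 FPKM). *Oxtr* was higher there (12.7 against 7.21 FPKM). The T cell marker *Cd3e* was listed at 0 in replicates 1 and 4. The part of these cells and of the ATF4 genes' levels in the *Gdf15* value was not tested. By the estimate of depth, *Gdf15* rests on about 29.6 fragments in replicate 1 and 14.9 in replicate 4.

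**Figure D1:**
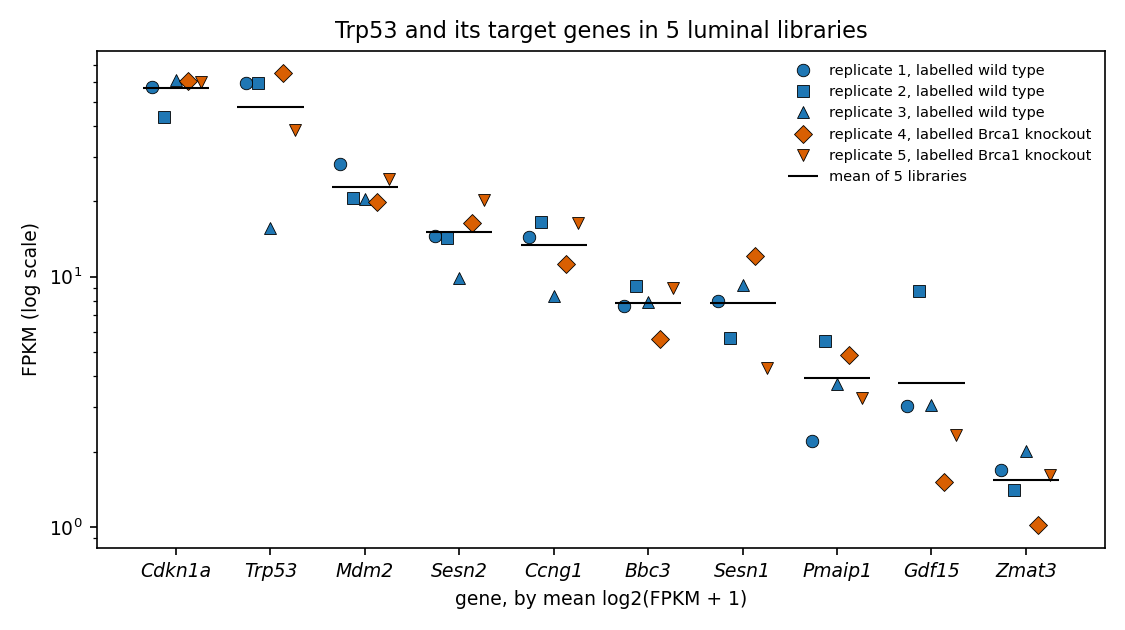
FPKM (log axis) of *Trp53* and its 9 targets in each of the 5 libraries, blue for the wild type label and orange for the *Brca1* knockout label, with a line at the mean. *Trp53* drops to 15.6 FPKM in replicate 3 while *Cdkn1a* stays between 43.6 and 61.2 FPKM, and the labels separate for *Sesn2* and *Gdf15* alone.

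By mean log2(FPKM + 1) the members ran from *Cdkn1a* at 5.83 over *Trp53*, *Mdm2*, *Sesn2*, *Ccng1*, *Bbc3*, *Sesn1*, *Pmaip1* and *Gdf15* to *Zmat3* at 1.34. Neighbours in this order were not all distinct. *Cdkn1a* exceeded *Trp53* in only 2 of 5 libraries, *Bbc3* exceeded *Sesn1* in 2 of 5 and *Pmaip1* exceeded *Gdf15* in 3 of 5, and in each of these pairs the mean difference (0.39, 0.06 and 0.18 on the log2 scale) was smaller than its SD over libraries (0.93, 0.74 and 0.70). *Sesn2* was above *Ccng1* in 4 of 5 libraries, by 0.16 ± 0.27 (SD, n = 5), and *Trp53* above *Mdm2* in 4 of 5, by 0.89 ± 0.81. The order held in every library between *Mdm2* and *Sesn2*, *Ccng1* and *Bbc3*, *Sesn1* and *Pmaip1*, and *Gdf15* and *Zmat3*. The cell cycle arrest gene *Cdkn1a* and the feedback gene *Mdm2* were above both apoptosis genes in all 5 libraries.

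**Figure D2:**
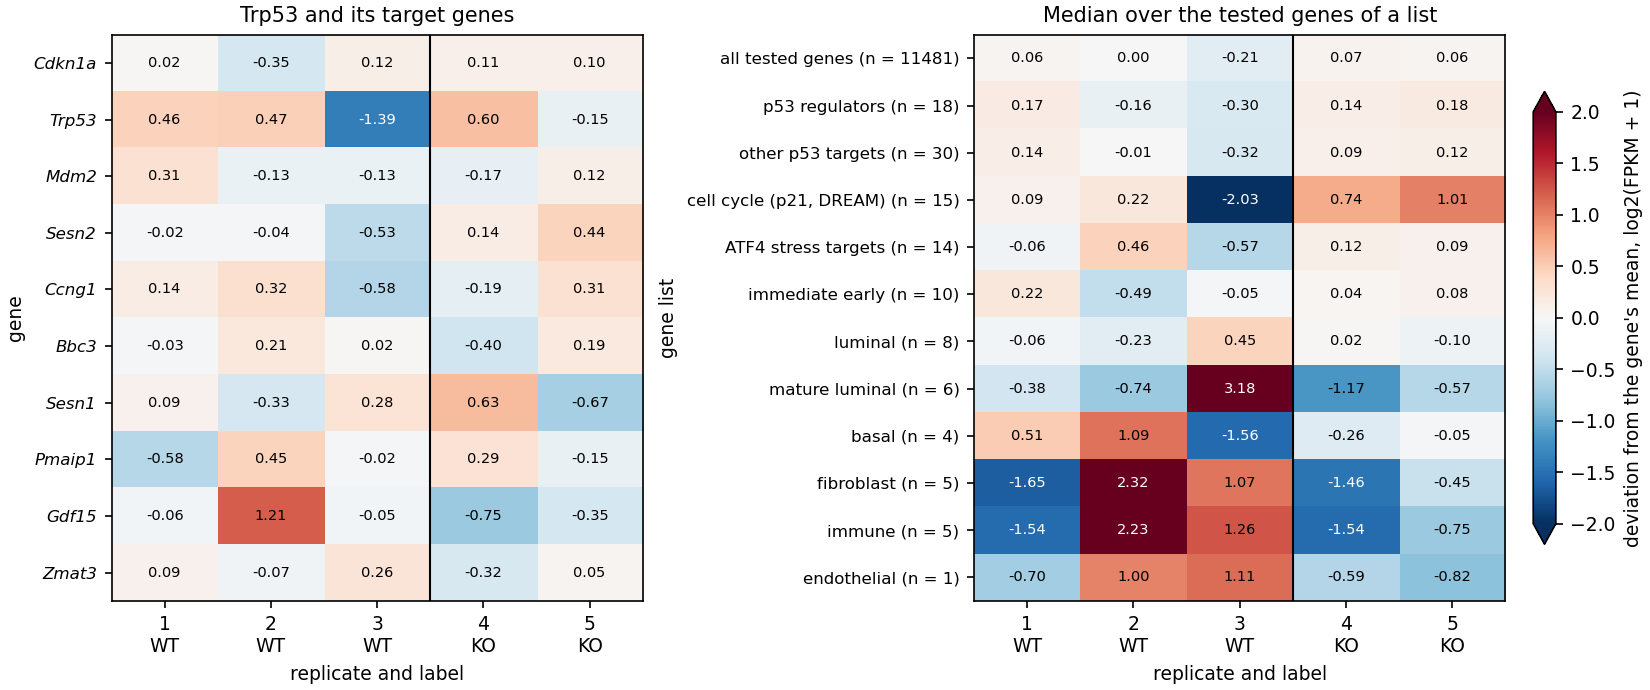
Deviation of each library from the gene's own mean on the log2(FPKM + 1) scale for the 10 genes (left) and the median deviation over the tested genes of each list (right), with WT and KO for the wild type and *Brca1* knockout labels; colors saturate at 2 while the printed numbers do not. *Trp53* is at -1.39 in replicate 3 and *Gdf15* at 1.21 in replicate 2, next to -2.03 for the cell cycle genes in replicate 3 and 2.32 for the fibroblast markers in replicate 2.

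The comparison between the labels asks whether the p53 response differs in luminal cells of the *Brca1* knockout genotype. All 10 genes passed the filter of a mean of at least 1 FPKM, and limma with Benjamini-Hochberg adjustment over 11481 genes called none of them. It called 0% of all tested genes higher and 0% lower, while 3.24% of tested genes (372) and 0 of the 10 members had an unadjusted p below 0.05. The labels did not overlap for 1 member that was higher, *Sesn2*, where 17.5% of tested genes were so, and for 1 that was lower, *Gdf15*, where 5.77% were so. Neither share of the 10 genes stands out from the background. The median log2 fold change (*Brca1* knockout minus wild type) was 0.03 over the members and 0.11 over all tested genes, and median-of-ratios scaling moved the latter to 0.0087.

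The 2 genes whose labels did not overlap had the largest differences of the 10. *Gdf15* had a log2 fold change of -0.91 (standard error 0.46, 95% confidence interval -2.07 to 0.25, adjusted p = 0.924 from limma), and without replicate 2 the value was -0.49. *Sesn2* had a log2 fold change of 0.49 (standard error 0.24, interval -0.11 to 1.09, adjusted p = 0.924 from limma), and 0.32 without replicate 3. For *Trp53* the log2 fold change of 0.38 (standard error 0.65, interval -1.26 to 2.01, adjusted p = 0.947 from limma) turned to -0.24 without replicate 3. The other differences were smaller. *Cdkn1a* gave 0.17 (interval -0.36 to 0.70), *Mdm2* -0.04 (-0.60 to 0.52) and *Bbc3* -0.17 (-0.78 to 0.44). A change of the *Cdkn1a*, *Mdm2* or *Bbc3* level by more than 0.78 on the log2 scale in either direction lies outside these intervals. *Sesn1* (-0.03, interval -1.12 to 1.06) and *Pmaip1* (0.12, interval -0.79 to 1.02) were less well bounded. *Ccng1* and *Zmat3* gave 0.10 (-0.75 to 0.95) and -0.23 (-0.90 to 0.44), and *Ccng1* turned to -0.0023 under median-of-ratios scaling.

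**Figure D3:**
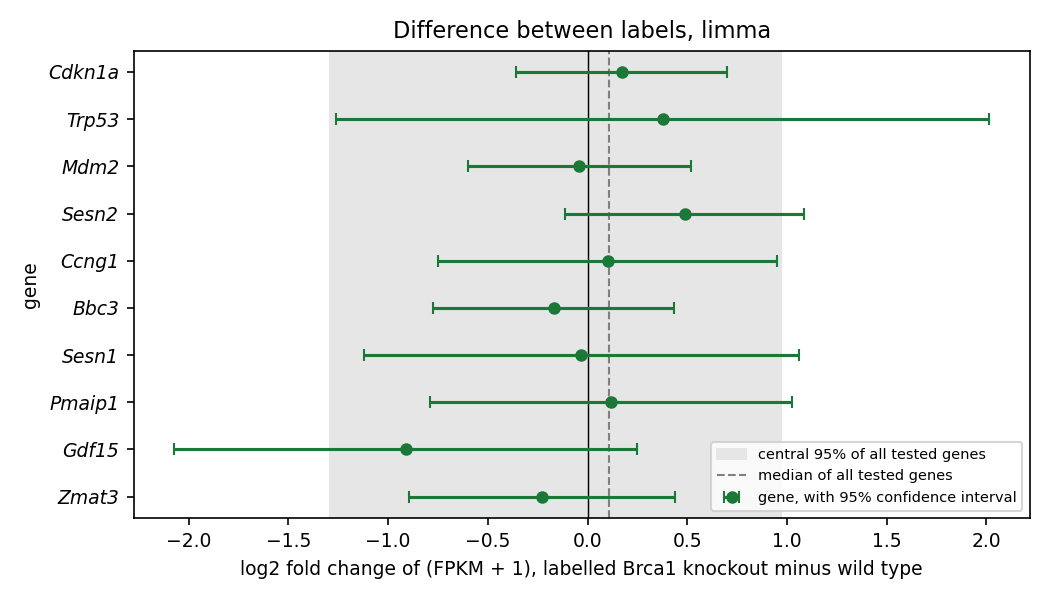
Log2 fold change of FPKM + 1 between the *Brca1* knockout and wild type labels for the 10 genes with 95% confidence intervals from limma (n = 3 and 2 libraries), over the central 95% of all tested genes (grey) and their median (dashed). Every interval includes 0, and *Gdf15* at -0.91 and *Sesn2* at 0.49 lie farthest from it.

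Of 19 regulators of p53 (*Brca1* among them), 18 were tested and none was called by limma. On average, 15 were higher and 3 lower under the knockout label. The median log2 fold change of the 18 was 0.23, beside 0.11 over all tested genes. The labels did not overlap for 4 of the 18, all higher, beside 17.5% of tested genes. These were the damage-sensing kinase genes *Atm* (1.98, 1.74 and 1.24 against 2.44 and 2.92 FPKM) and *Atr* (3.13, 2.43 and 1.89 against 3.62 and 3.69 FPKM) and the acetyltransferase genes *Ep300* (9.48, 8.86 and 11.1 against 12.6 and 14.5 FPKM) and *Crebbp*, which was named after its values were seen. *Ep300* had the smallest standard error of the 4 genes with the largest difference, with a log2 fold change of 0.43 (standard error 0.19, adjusted p = 0.924 from limma). *Chek2* differed most, by 0.87 (standard error 0.52), but at 6.84, 3.64 and 1.35 against 6.76 and 7.34 FPKM its groups overlapped. The most abundant regulators were the ribosomal protein genes *Rpl11* and *Rpl5*, whose products bind MDM2, with log2 fold changes of -0.03 and -0.12, followed by the corepressor gene *Trim28* (0.23) and the deubiquitinase gene *Usp7* (0.14). The relatives of *Trp53* were nearly silent here. *Trp63*, a basal cell factor, lay between 0.115 and 0.311 FPKM, and *Trp73* was listed at 0 in 4 libraries and at 0.0206 FPKM in replicate 5.

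Of 38 other p53 target genes, 30 were tested and none was called by limma. On average, 20 were higher and 10 lower under the knockout label. The median log2 fold change of the 30 was 0.18, beside 0.11 over all tested genes. The labels did not overlap for 10 that were higher, against 17.5% of tested genes, and for 1 that was lower (*Polk*, a translesion polymerase gene named after its values were seen), against 5.77%. With replicate 3 left out, the counts were 10 and 3 of 30, beside 23.5% and 15.6% of all tested genes. The largest differences belonged to *Ckap2* and *Psrc1*, genes of the mitotic spindle, and *Rprm*, a gene of arrest before mitosis. *Ckap2* was at 5.68, 4.65 and 0.179 against 9.16 and 9.50 FPKM (log2 fold change 1.54, standard error 0.79), and *Psrc1* at 6.52, 3.44 and 0.71 against 8.11 and 10.6 FPKM (1.42, standard error 0.63). *Rprm*, at 1.19, 1.02 and 0.170 against 2.72 and 4.38 FPKM, was the single one with an unadjusted p below 0.05 (log2 fold change 1.37, standard error 0.38, unadjusted p = 0.0143 and adjusted p = 0.924 from limma). *Ckap2*, *Psrc1* and *Rprm* had their lowest value in replicate 3, as all 15 cell cycle genes did, which were also higher on average under the knockout label (13 of 15 without overlap). The part of cycling cells in these differences was not tested. The antigen transporter gene *Tap1* (53.6, 32.9 and 25.02 against 49.1 and 129 FPKM) had a log2 fold change of 1.15 (standard error 0.51), with the highest value in replicate 5 while replicate 4 lay below replicate 1.

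The most abundant other targets were *Thbs1*, *Btg2*, *Sfn* and *Plk2*. *Thbs1*, an inhibitor of angiogenesis, was at 271, 268 and 59.5 against 313 and 325 FPKM, and the kinase gene *Plk2* at 107, 105 and 46.9 against 101 and 134 FPKM, both with the lowest value in replicate 3. *Sfn*, the 14-3-3 sigma gene of cell cycle arrest, went the other way at 113, 127 and 274 against 124 and 102 FPKM. The antiproliferative gene *Btg2* had its lowest value in replicate 2 (209, 113 and 165 against 169 and 159 FPKM), as *Cdkn1a* and *Mdm4* did. The targets did not all move one way in a library. Of the 30 tested, 18 were lowest and 6 highest in replicate 3, where 51.9% of all tested genes were lowest and 18.5% highest.

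**Figure D4:**
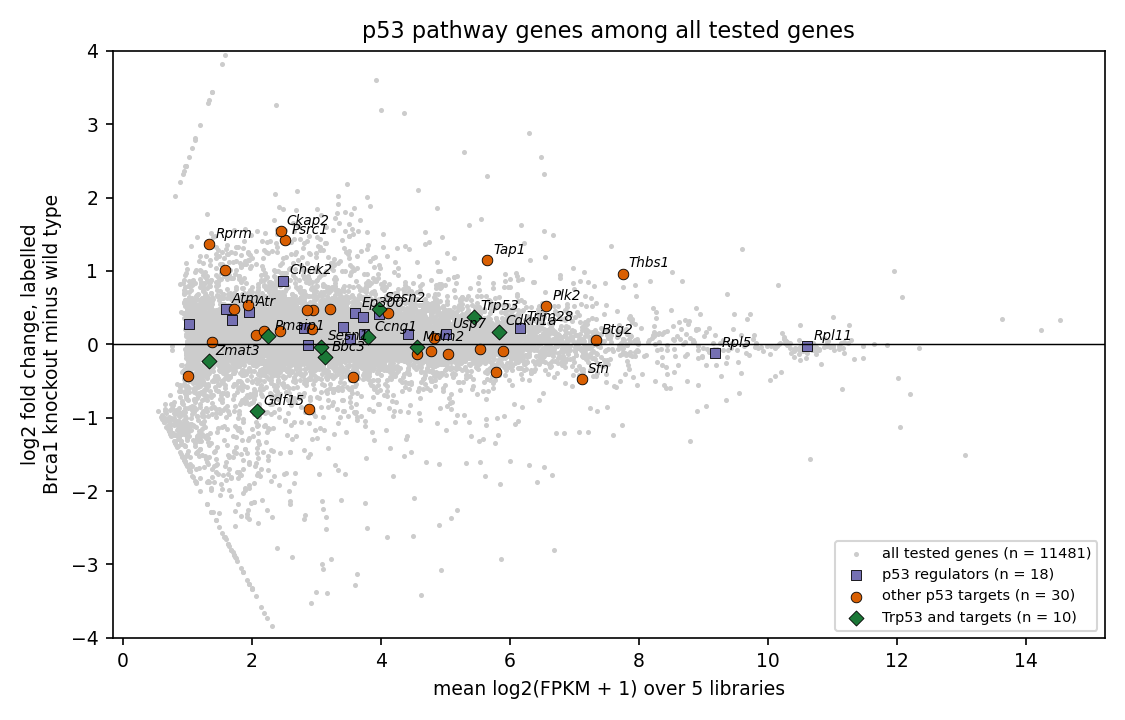
Log2 fold change between labels against mean log2(FPKM + 1) for *Trp53* and its 9 targets (green), other p53 targets (orange) and p53 regulators (purple) over all tested genes (grey); 27 tested genes beyond a log2 fold change of 4 in either direction are outside the axis. *Ckap2* at 1.54 and *Psrc1* at 1.42 are the highest of the p53 genes shown, and the members lie between -0.91 and 0.49.

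The genes whose pattern across the 5 libraries was most like that of *Trp53*, by the root mean square difference of log2(FPKM + 1) after centring each gene, were *Car6* (0.07), *Arhgef40* (0.17) and *Timd2* (0.17). *Car6*, a carbonic anhydrase gene, was at 8.20, 7.45 and 1.41 FPKM under the wild type label and 7.77 and 4.38 FPKM under the knockout label, with the same low replicate 3 and intermediate replicate 5. For *Cdkn1a* the closest were *Gnl1* (0.02), *Chp1* (0.03) and *Med12* (0.03). *Gnl1* was at 30.7, 22.5 and 31.7 FPKM and at 31.2 and 31.0 FPKM, again with replicate 2 below the rest. The likeness rests on 5 libraries and on 1 low library in each case, and 11481 genes were searched. No other member was among the 3 closest to either gene.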

How the data were processed

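RNA from 5 libraries of sorted mouse mammary luminal cells was sequenced. The deposited table holds FPKM values, made by the authors from reads aligned to mm10. The submitters' processing notes name Trimmomatic 0.35, TopHat2 2.0.13 and Cufflinks 2.2.1, the study's methods another TopHat version, and the annotation and the platform of each library are not given in the sources used here. The NEBNext Ultra kit does not keep the strand. The table has 24346 rows, of which 27 had a date in place of a gene name and were left out.

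Groups followed the genotype labels (3 and 2 libraries), and the labels share no replicate numbers. The 11481 genes whose mean reached 1 FPKM were compared on log2(FPKM + 1) by limma 3.58.1 (lmFit and trended eBayes, R 4.3.3), with Benjamini-Hochberg adjustment at a threshold of 0.05, and the fit was tested on simulated data. Because of the added 1, changes of low genes come out too small. FPKM were not turned back into counts, because only 51.7% to 57.8% of low values lay near whole multiples of 1 fragment, so fragment numbers are approximate and cover counting error only. Coordinates are those of GENCODE M21 and promoter sequences those of RefSeq (GRCm38.p6). *Zmat3* and *Pmaip1* had no promoter window. Python 3.11.15, numpy 2.4.6, pandas 2.3.3 and matplotlib 3.10.9 were used.

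The genes named are the 10 members, *Brca1*, the 4 of each p53 list with the largest difference between labels and the 4 with the highest level, and the 3 closest in pattern to *Trp53* and *Cdkn1a*; others are values of the lists. The members and lists were chosen with earlier results of these data known. The alternatives were a pseudocount of 0.1, other filters, scalings and eBayes settings, and each replicate left out.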

Additional observations from a re-analysis of the deposited data

Results flagged for a closer look

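Of 35 genes screened over all 5 libraries (the 10 members, *Brca1* and the other genes named by rule), 10 had 1 library whose gap to its nearest neighbour took up more than 0.71 of the gene's whole range on log2(FPKM + 1). Chance gives about 1 in 20, and 12.99% of all tested genes had such a library, 10.6% in replicate 3. Replicate 3 was the low library for *Brca1* (0.902 of the range), *Thbs1* (0.886), *Timd2* (0.781), *Plk2* (0.728) and *Ckap2* (0.717), and the high one for *Sfn* (0.783). Replicate 2 was the low library for *Gnl1* (0.905), *Cdkn1a* (0.791) and *Med12* (0.723). *Gnl1* and *Med12* had been chosen for their likeness to *Cdkn1a* and *Timd2* for its likeness to *Trp53*, so they are not independent of these. *Trp73* was listed at 0 in all libraries except replicate 5, so that its gap is the whole range (1). *Trp53* itself did not pass, with a gap of 0.627 of the range in replicate 3.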

How the results depend on the processing

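No member and none of the other 48 tested p53 genes was called under any of the 12 alternatives. The direction of *Cdkn1a*, *Sesn2*, *Zmat3* and *Gdf15* was the same under each alternative that kept them (the filter of 5 FPKM dropped *Zmat3*, *Gdf15* and *Pmaip1*, and the eBayes settings do not alter fold changes), and 6 members took both signs. With each replicate left out, the log2 fold change ran from -0.24 (without replicate 3) to 0.75 for *Trp53*, -0.18 to 0.10 for *Mdm2*, -0.17 to 0.35 for *Ccng1*, -0.47 to 0.12 for *Bbc3*, -0.15 to 0.37 for *Pmaip1* and -0.68 to 0.62 for *Sesn1*. *Ccng1* gave -0.0023 under median-of-ratios scaling and -0.0075 under quantile normalization, and these moved the median over the members to -0.0674 and -0.0625. The cause of these shifts was not tested. Without 1 replicate that median ran from -0.131 (replicate 3) to 0.0557, the count of all genes called from 0 to 14 (2 without replicate 1, 14 without replicate 4, 4 without replicate 5), members without overlap from 2 to 7 (7 without replicate 5) and other p53 genes without overlap from 17 to 29 (29 without replicate 1, 24 without 4, 26 without 5), an alternative added after seeing the data. Smaller groups overlap less, and the share of all tested genes without overlap was 23.3% with all libraries and 32.2% to 45.5% with 1 left out. Leaving out replicate 4 or 5 leaves 1 library under the knockout label, assumed to vary like the others. No paired analysis was possible because the labels share no replicate numbers. By the rough estimate of depth, *Gdf15*, *Pmaip1*, *Zmat3* and *Bbc3* rest on the fewest fragments, in replicates 1 and 4.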

Other observations

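Some genes of the p53 lists entered the counts above without their values being given. *Trp53inp1*, a p53 target that takes part in autophagy and apoptosis, was at 25.1, 19.0 and 74.7 FPKM under the wild type label and 45.5 and 19.97 FPKM under the knockout label, so that it was highest in the library where *Trp53* was lowest. *Phlda3*, an inhibitor of AKT, was at 6.15, 4.46 and 1.06 FPKM and at 2.47 and 5.87 FPKM. *Bax*, the pore-forming apoptosis gene, was at 60.4, 52.2 and 31.8 FPKM and at 43.3 and 45.3 FPKM. Of the regulators, *Cdkn2a*, which encodes the MDM2 inhibitor p19Arf, was listed at 0 in replicates 1 and 4 and reached 0.893 FPKM in replicate 3. These genes were chosen after their values were seen.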
